A study of Mus musculus with 12 samples.

Results

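Neurog2 and 8 further transcription factors of the excitatory lineage of the forebrain (Neurod1, Neurod2, Neurod6, Tbr1, Eomes, Emx1, Bhlhe22 and Sox11) were followed in RNA bound to tagged ribosomes of the mouse hippocampus. These 9 genes were taken by symbol from the 24079 genes of the deposited counts, and all 9 passed the filter of at least 15 reads over the 12 libraries, which 17823 genes passed. Neurog2 was included with its difference between genotypes already known from these data, so its difference below is a description and not a test. The other 8 were included for their place in the same lineage, also with earlier results of these data known. The libraries came from Wfs1-CreERT2:RiboTag mice, in which Cre recombinase under the Wfs1 promoter, once activated by tamoxifen (100 mg/kg on 3 days), exchanges exon 4 of Rpl22 for a version carrying the HA tag. The animals were adult C57BL/6J males of 2 to 6 months, either wild type for Fmr1 or Fmr1-/y (Fmr1 KO), the gene for the RNA-binding protein FMRP, which is on the X chromosome. Both genotypes carried the Cre and the tagged ribosomal protein and had received tamoxifen, with tissue taken 1 week later. In the paper, staining for the tag was seen in CA1 pyramidal cells and not in CA2, GABAergic or glial cells. No library of unpurified RNA was among the 12, so RNA carried along from untagged cells cannot be told apart. Each genotype had 6 libraries, and each library was a pool of whole hippocampi from 4 to 6 mice, so each library stands for a pool and not for 1 animal.

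The proneural factor Neurog2 is a basic helix-loop-helix (bHLH) protein that binds E-box DNA together with ubiquitous bHLH partners such as Tcf4, and Hes and Id proteins oppose it. In the developing pallium, Neurog2 acts upstream of Eomes, of the Neurod genes and of Tbr1 as progenitors become glutamatergic neurons. In the adult hippocampus, the early part of this sequence is known from the progenitors and young neurons of the dentate gyrus, whereas Neurod2, Neurod6 and Bhlhe22 remain active in mature excitatory neurons.

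Several of these proteins belong to the same families, and short reads can be shared between related genes. For this reason the most alike stretches of coding sequence are shown, in windows of 50 bases, the length of 1 read, from GENCODE transcripts. Alignments with more than 3 mismatches had been discarded. The closest pair was Neurod1 and Neurod2, at chr2:79454655-79454704 and chr11:98327891-98327940 (mm10, both minus strand), in the part that codes for the bHLH domain. Capitals mark the bases that differ.
Neurod1: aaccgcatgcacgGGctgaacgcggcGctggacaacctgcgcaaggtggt
Neurod2: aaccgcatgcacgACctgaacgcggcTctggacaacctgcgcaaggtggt
These windows differed at 3 of 50 bases (94.0% identity), so that a read from there could fall within the mismatch limit of both genes, although its own gene remained the better match. For Neurog2, the closest window lay at chr3:127634074-127634123 (plus strand), in its bHLH part, against Neurod1 at chr2:79454676-79454725 (minus strand).
Neurog2: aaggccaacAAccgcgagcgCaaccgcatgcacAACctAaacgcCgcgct
Neurod1: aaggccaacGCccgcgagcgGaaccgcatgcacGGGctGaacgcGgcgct
Neurog2 differed from Neurod1 at 8 of 50 bases (84.0% identity), and its closest window to Neurod2 also differed at 8 bases, more than the mismatch limit. The T-box pair Tbr1 and Eomes differed at 4 bases (92.0% identity) in a window of the T-box part that spans an exon junction in both genes.
Tbr1: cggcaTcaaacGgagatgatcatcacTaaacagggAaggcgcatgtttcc
Eomes: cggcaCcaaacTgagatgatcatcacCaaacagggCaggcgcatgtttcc
All other pairs of the 9 genes differed at 9 or more bases in their closest window of coding sequence.

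The libraries held 39400980 to 55745464 counted reads in the wild type and 43106629 to 65565479 in the Fmr1 KO. Fmr1 had 1971 to 2608 reads in the wild-type libraries, 0 reads in 5 Fmr1 KO libraries and 1 read in the sixth, in accordance with the labels. Levels are given in CPM, the read count scaled to a common library size, after TMM normalization, which sets the scale of each library by the bulk of its genes. All 60 markers of 12 cell type lists were detected, and detection of a marker does not by itself show its cell type. Other cell types were not examined. The CA1 pyramidal markers summed to 1747 to 2371 CPM in the wild type and 1621 to 2108 CPM in the Fmr1 KO, and the choroid plexus markers, led by Ttr, to 6347 to 11818 CPM and 8267 to 17421 CPM, respectively. None of the 12 lists differed between genotypes after adjustment over the lists (two-sided exact permutation test over 6 and 6 libraries, lowest adjusted p = 0.240). In such bulk samples, fewer cells of a type and less RNA per cell cannot be told apart.

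Per kilobase of exon, the 9 genes spanned a wide range of levels in the wild type. Neurod6, a bHLH factor of postmitotic excitatory neurons, had the highest level (131.5 CPM per kb), followed by its relative Neurod2 (62.9 CPM per kb). Bhlhe22, a bHLH repressor of maturing projection neurons, stood at 25.2 CPM per kb and Neurod1, which drives terminal differentiation of granule neurons, at 10.9 CPM per kb. Among the 16593 tested genes with a known exon length, Neurod6 lay at percentile 98.4 and Neurod2 at percentile 95.7 by their mean level over all 12 libraries. Next in the order came genes of middle rank. Tbr1, a T-box factor of early postmitotic neurons, had 5.33 CPM per kb (percentile 59.4), Sox11, a SoxC factor of immature neurons, 3.605 CPM per kb (percentile 49.6), and Emx1, a homeobox gene of the dorsal telencephalon, 2.23 CPM per kb (percentile 41.9). Neurog2 itself had 0.603 CPM per kb (percentile 22.9), and Eomes, the T-box factor of intermediate progenitors, was the lowest of the 9 with 0.234 CPM per kb (percentile 17.3). The wild-type libraries of Tbr1 and Sox11, and those of Sox11 and Emx1, overlapped in level per kb. The other neighbours in this order did not overlap, with ratios of mean levels per kb from 2.04 for Neurod1 over Tbr1 to 3.70 for Emx1 over Neurog2.

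**Figure D1:**
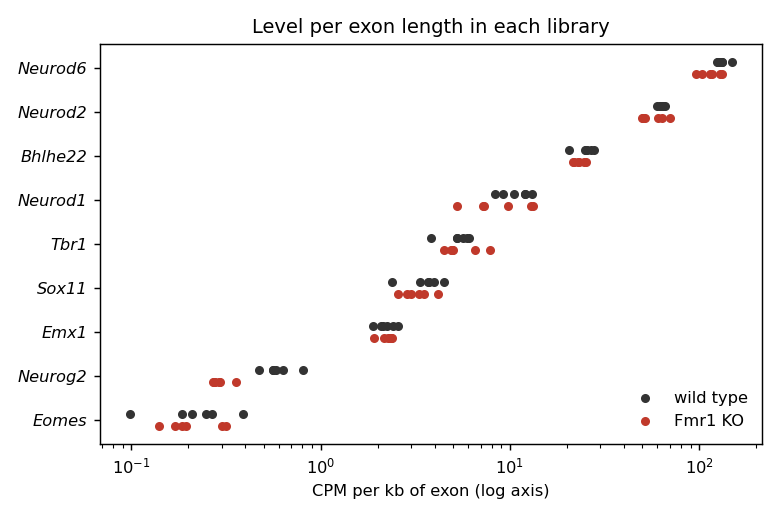
Level of each of the 9 genes in each library, in TMM-normalized CPM per kb of exon on a log axis, with the 6 wild-type libraries in dark grey above the 6 Fmr1 KO libraries in red. Neurod6 and Neurod2 are the highest, Neurog2 and Eomes the lowest, and Neurog2 is the gene whose red and grey points do not overlap.

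Neurog2 (chromosome 3 from 127632733 to 127635636 in GRCm38, plus strand) was lower in every Fmr1 KO library than in every wild-type library. The wild-type libraries ranged from 1.05 to 1.80 CPM with a median of 1.27, and the Fmr1 KO libraries from 0.603 to 0.792 CPM with a median of 0.629. By the edgeR fold change, the KO level was 48.7% of the wild-type level (log2 fold change -1.04, SE 0.22, 95% interval -1.50 to -0.57). All 9 genes together gave 1 gene whose genotypes did not overlap, against 0.623% of all genes tested (0.41% with every Fmr1 KO library lower and 0.213% with every one higher), but Neurog2 was chosen on this contrast and nothing is read from that count. The level rests on few reads, namely 42 to 73 in each wild-type library and 28 to 42 in each Fmr1 KO library, or 356 and 201 reads in all. Counting error alone would give a coefficient of variation of 12.98% in the wild type, where 18.8% was observed, and of 17.3% in the Fmr1 KO, where 10.9% was observed. The Fmr1 KO libraries therefore differed from each other by no more than counting allows.

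**Figure D2:**
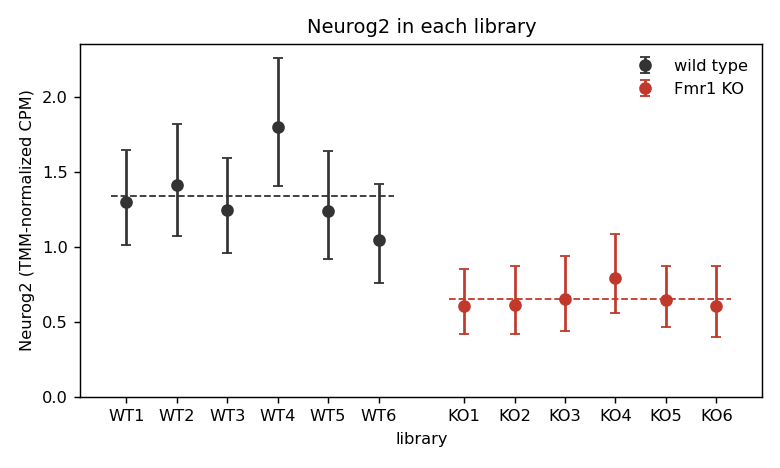
Neurog2 level in each of the 12 libraries in TMM-normalized CPM, with 95% Poisson intervals of the read count (counting error only) and a dashed line at each genotype's mean. The 6 Fmr1 KO libraries lie between 0.603 and 0.792 CPM and the 6 wild-type libraries between 1.05 and 1.80 CPM.

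The Neurog2 difference did not pass the adjusted threshold of 0.05 in edgeR, which called 4 of 17823 genes (0.0224%), all lower in the Fmr1 KO. DESeq2, run as an alternative, called 84 of the 14713 genes to which it gave an adjusted p (0.571%), and Neurog2 was among them with the same fold change. The size of the difference hardly varied, but Neurog2 was chosen for it in these same libraries. Neither the DESeq2 call nor the ranges below are read as support. Leaving out any 1 library gave log2 fold changes from -1.10 to -0.94, and the 11 alternative fits gave -1.16 to -1.01. These fits changed the normalization, filter or test, or added a replicate block or the CA1 or choroid plexus list as a covariate. Both lists were chosen as covariates after the data were seen. Without wild-type replicate 4, the library with the most Neurog2, the log2 fold change was -0.94. None of the 12 cell type lists had a correlation with Neurog2 over the 12 libraries that passed adjustment over the 108 relations of genes and lists. For the adult neurogenic niche list, 7 genes of progenitors and young neurons such as Dcx and Mki67, r was 0.522 (permutation p = 0.083, adjusted p = 0.480) and rho 0.371, with r = 0.897 within the wild type, -0.677 within the Fmr1 KO and 0.160 without wild-type replicate 4 and Fmr1 KO replicate 3. Values of this size were not particular to that list. Over the 12 libraries, r was 0.505 for the dentate granule list and -0.507 for the endothelial list. Within the wild type, r was 0.800 for the CA2 list, 0.759 for the oligodendrocyte list and 0.714 for the endothelial list. The CA1 list alone was negative there (-0.568), and it had -0.882 within the Fmr1 KO.

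The dentate granule markers, the cell type next to the niche where Neurog2 is known in the adult, summed to 124.7 to 155.5 CPM in the wild type and 107.4 to 141.8 CPM in the Fmr1 KO, with all 6 detected. Their mean log2 level was 0.10 lower in the Fmr1 KO (adjusted p = 0.240, exact permutation test, 6 and 6 libraries), and 0.23 lower by the log2 of their summed CPM (adjusted p = 0.156, exact permutation test). The 6 markers did not move as one. By sign, 5 were lower, with log2 fold changes from -0.39 for Lct (66.8 CPM in the wild type and 51.1 CPM in the Fmr1 KO) and -0.38 for Prox1 (18.4 and 14.1 CPM) to -0.05 for C1ql2. Plk5 was at 5.55 CPM in the wild type and 8.42 CPM in the Fmr1 KO, with a log2 fold change of 0.60, and none of the 6 passed the adjusted threshold in edgeR (adjusted p from 0.382 to 0.966, Lct and Plk5 with an unadjusted p below 0.05). The adult neurogenic niche list, with all 7 markers detected, summed to 36.5 to 56.5 CPM in the wild type and 43.2 to 53.3 CPM in the Fmr1 KO, and its mean log2 level was 0.19 lower in the Fmr1 KO (adjusted p = 0.301, exact permutation test), 0.082 lower by summed CPM, and 0.11 to 0.24 lower with 1 library left out. The part of either cell population in the Neurog2 difference was not tested.

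Eomes, which follows Neurog2 in progenitors, also rested on few reads, with a lower level per kb in the wild type and a wider spread. It showed no difference like that of Neurog2. The wild-type libraries ran from 0.409 to 1.63 CPM (median 0.952) and the Fmr1 KO libraries from 0.582 to 1.31 CPM (median 0.792), within the wild-type range. The log2 fold change of Eomes was -0.10 (SE 0.32, 95% interval -0.77 to 0.57, edgeR adjusted p = 0.9747), an interval that spans 58.8% to 149% of the wild-type level. Its sign turned to 0.01 without Fmr1 KO replicate 5 and to 0.11 without wild-type replicate 4. With 22 to 66 reads in a library, counting error accounted for a coefficient of variation of 15.5% in the wild type, and the observed value was 41.6%.

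Tbr1, the next T-box factor of the sequence, was detected with 29.3 ± 4.50 CPM in the wild type and 30.8 ± 7.07 CPM in the Fmr1 KO (SD, n = 6 each). The wild-type libraries ran from 20.9 to 33.4 CPM (median 29.9) and the Fmr1 KO libraries from 24.6 to 42.9 CPM (median 27.4). Fmr1 KO replicates 4 and 5 lay above the whole wild-type range and the other 4 within it. The log2 fold change was 0.08 (SE 0.14, 95% interval -0.21 to 0.36, edgeR adjusted p = 0.944). It turned to -0.04 without Fmr1 KO replicate 5, the highest library, and to -0.0031 without wild-type replicate 4, the lowest.

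Of the Neurod genes, Neurod6 showed the smallest unadjusted p. The wild-type libraries ran from 268 to 322 CPM (median 278) and the Fmr1 KO libraries from 207 to 284 CPM (median 248). Fmr1 KO replicates 1, 3, 4 and 5 lay below all wild-type libraries, while replicates 2 and 6 lay within their range. By the edgeR fold change, the KO level was 87.4% of the wild type. The log2 fold change of -0.19 (SE 0.08, 95% interval -0.35 to -0.03) did not pass the threshold over all genes (edgeR adjusted p = 0.512). Counting error was 0.89% in each genotype, below the observed spread of 7.13% in the wild type and 12.1% in the Fmr1 KO. What pools, library preparation and lane each added to that spread was not tested.

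Neurod6 moved with the CA1 markers across libraries. Over all 12 libraries its log2 level and the mean log2 level of the CA1 list (5 genes, among them Wfs1, Slc1a1, Fibcd1 and Pou3f1) had a Pearson r of 0.883 (permutation p = 0.00018) and a Spearman rho of 0.881 (permutation p = 0.00035). Among the 108 relations of 9 genes and 12 lists that were computed, this was the one that passed adjustment (adjusted p = 0.0194 for r and 0.0378 for rho, permutation tests). The r was 0.841 within the wild type and 0.885 within the Fmr1 KO, and it was 0.659 without wild-type replicate 1 and Fmr1 KO replicate 4, the libraries farthest from the median of the CA1 list (permutation p = 0.0302). All 5 CA1 markers were lower in the Fmr1 KO by sign, with Wfs1, the gene whose promoter drives the Cre, at 1272 CPM in the wild type and 1054 CPM in the Fmr1 KO (edgeR adjusted p = 0.410). The list as a whole was 0.15 lower on the log2 scale (adjusted p = 0.299, exact permutation test). With the CA1 list as a covariate, chosen after the data were seen, the log2 fold change of Neurod6 was -0.09 (SE 0.06), and with the choroid plexus list it was -0.12.

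**Figure D3:**
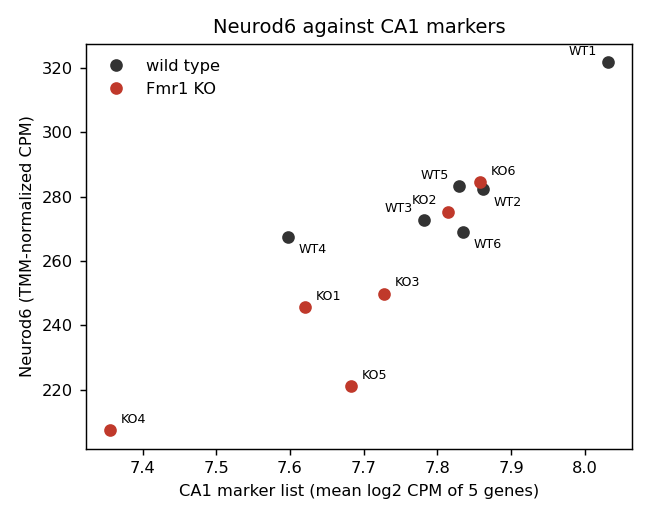
Neurod6 level in TMM-normalized CPM against the mean log2 CPM of 5 CA1 pyramidal markers, one point for each of the 12 libraries, wild type in dark grey and Fmr1 KO in red. The points rise together (r = 0.883), from Fmr1 KO replicate 4 at the lower left to wild-type replicate 1 at the upper right.

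Neurod2, a bHLH factor of mature cortical and hippocampal excitatory neurons, was even across the wild type and uneven across the Fmr1 KO. The wild-type libraries held 188 to 207 CPM (median 197, coefficient of variation 3.51%), and the Fmr1 KO libraries 156 to 221 CPM (median 176, coefficient of variation 14.7%). Fmr1 KO replicates 1, 4 and 5 lay below every wild-type library, replicate 3 above every one, and replicates 2 and 6 within the wild-type range. The log2 fold change was -0.12 (SE 0.08, 95% interval -0.29 to 0.05, edgeR adjusted p = 0.771). It was -0.05 with the CA1 list as a covariate and -0.03 with the choroid plexus list.

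Neurod1, the third of these genes and the one known from granule neurons, had the widest spread of the 9 genes in the Fmr1 KO. The wild-type libraries ran from 22.8 to 35.6 CPM (median 30.9) and the Fmr1 KO libraries from 14.4 to 36.4 CPM (median 23.2). Fmr1 KO replicates 1, 2 and 5 lay below the wild-type range, replicate 3 above it, and replicates 4 and 6 within it. The coefficient of variation was 35.4% in the Fmr1 KO, where counting gives 2.82%. The log2 fold change was -0.23 (SE 0.19, 95% interval -0.63 to 0.17, edgeR adjusted p = 0.834), and it became -0.39 with the CA1 list as a covariate. It was -0.36 without Fmr1 KO replicate 3, -0.35 without replicate 4 and -0.11 without replicate 5. One limit is that GENCODE, though not RefSeq, lists a transcript of Cerkl that overlaps Neurod1 on the same strand.

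Bhlhe22, Sox11 and Emx1 overlapped between genotypes. Bhlhe22 had 68.9 to 93.5 CPM in the wild type (median 84.9) and 71.8 to 84.0 CPM in the Fmr1 KO (median 77.0), with all 6 Fmr1 KO libraries below the wild-type median but none below its lowest library, replicate 4. Its log2 fold change was -0.12 (SE 0.07, 95% interval -0.27 to 0.03, edgeR adjusted p = 0.739). Sox11 had 19.8 to 37.4 CPM in the wild type (median 30.9) and 21.4 to 34.6 CPM in the Fmr1 KO (median 26.3). Its log2 fold change was -0.15 (SE 0.13, 95% interval -0.43 to 0.13, edgeR adjusted p = 0.849), and -0.29 with the CA1 list as a covariate. It was -0.25 without wild-type replicate 1, its lowest library, -0.24 without Fmr1 KO replicate 4, -0.09 without Fmr1 KO replicate 1 and -0.08 without wild-type replicate 3. Emx1 was the most even of the low genes between genotypes, with 4.14 to 5.60 CPM in the wild type (median 4.79) and 4.18 to 5.23 CPM in the Fmr1 KO (median 5.01). Its log2 fold change was 0.01 (SE 0.12), and the 95% interval of -0.24 to 0.25 (edgeR adjusted p = 0.999) spans 84.8% to 119% of the wild-type level.

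**Figure D4:**
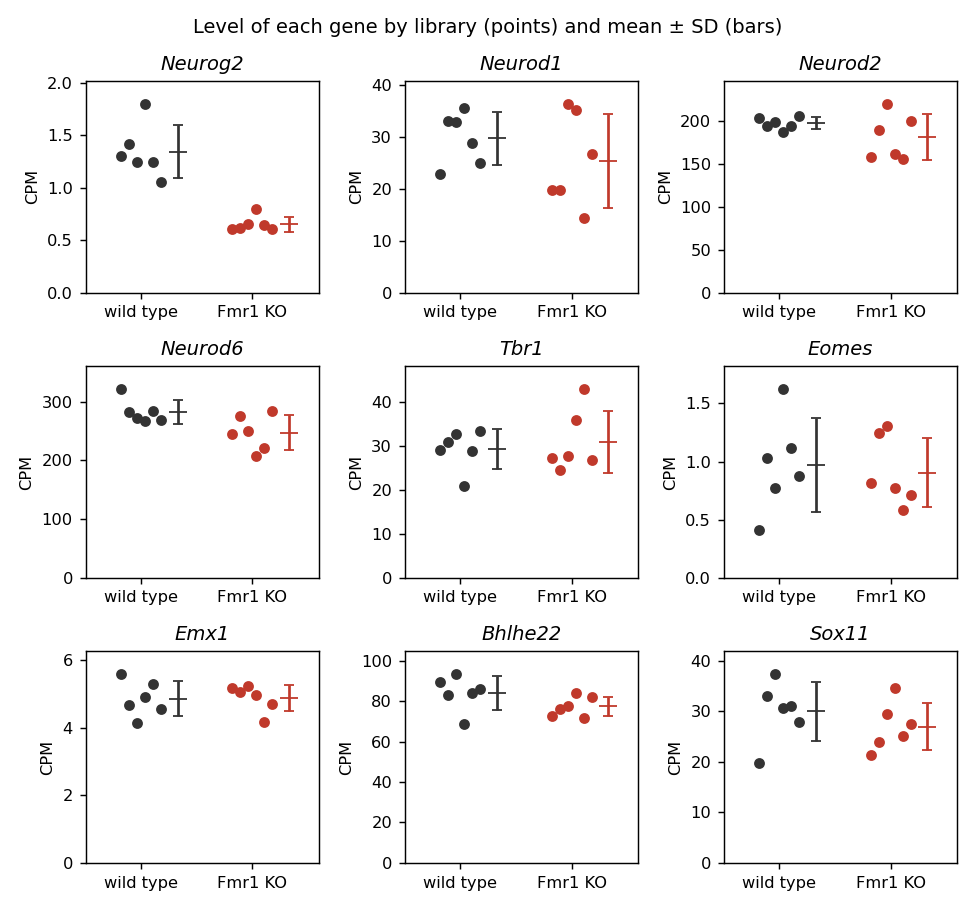
Level of each of the 9 genes in TMM-normalized CPM, one point for each library in the order of the replicate numbers, with the mean and SD of 6 libraries beside them, wild type in dark grey and Fmr1 KO in red, each axis starting at 0. The Neurog2 groups are apart, and those of the other 8 genes overlap, with a wide Fmr1 KO spread in Neurod1 and Neurod2.

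Among the 9 genes, 7 were lower in the Fmr1 KO by the sign of the fold change, and 2 were higher, where 48.6% of all genes tested were lower and 51.4% higher. The signs of Tbr1, Eomes and Emx1 turned when single libraries were left out, and those of the other 6 genes did not. The median log2 fold change was -0.12, and it was -0.12 for the 8 genes without Neurog2, against 0.00 for all genes tested. Neurog2 had an unadjusted p below 0.05 in edgeR, but it was chosen on this contrast and nothing is read from that. Of the other 8 genes, 6 were lower by sign, and 1 of them, Neurod6, had such a p. Among all genes, 7.96% had such a p and 3.67% had it in that direction. None of the 9 passed the adjusted threshold in edgeR or in limma voom, and 1 did in DESeq2, Neurog2.

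**Figure D5:**
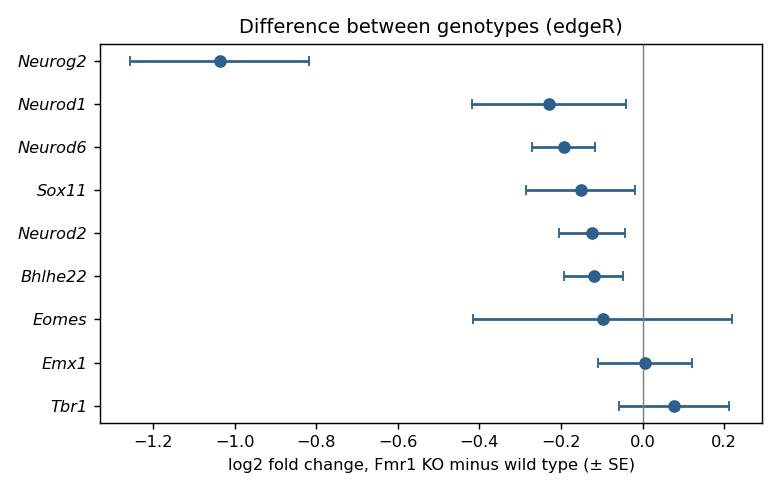
Log2 fold change of the 9 genes, Fmr1 KO minus wild type, from edgeR, with bars of 1 SE. Neurog2 stands at -1.04, and the other 8 genes lie between -0.23 and 0.08.

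No pair of the 9 genes had a correlation over the libraries that passed the adjusted threshold over the 36 pairs. By size, Neurod1 and Sox11 had the highest correlation over the 12 libraries, with r = 0.734 (permutation p = 0.0064, adjusted p = 0.217) and rho = 0.734 (permutation p = 0.0089, adjusted p = 0.319). Their r was 0.824 within the wild type and 0.772 within the Fmr1 KO. It was 0.781 without Fmr1 KO replicates 1 and 5. Neurod2 and Neurod6 came next (r = 0.697, permutation p = 0.0121, adjusted p = 0.217, with rho = 0.538). Eomes and Neurog2 had an r of 0.163 (permutation p = 0.613) and a rho of 0.231 over the 12 libraries.

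The genes whose log2 level followed Neurog2 most closely over the 12 libraries, among 13741 genes with a mean log2 CPM above 0, were Fmr1 itself (r = 0.934), Hmgcll1 (r = 0.933), Homer1 (r = 0.920), Tmem184c (r = 0.908) and Ubxn2b (r = 0.901). The r values in this paragraph are the highest among many genes over only 12 libraries, so they are descriptive. All 5 genes were lower in the Fmr1 KO by sign. That follows from picking them by their r with Neurog2, which was lower in every Fmr1 KO library. Fmr1 alone passed the adjusted threshold in edgeR, with adjusted p from 0.216 to 0.349 for the other 4. Homer1, a scaffold protein of excitatory synapses, had 90.5 ± 5.21 CPM in the wild type and 78.5 ± 5.22 CPM in the Fmr1 KO (SD, n = 6 each, edgeR adjusted p = 0.349). Once the mean of each genotype had been subtracted, other genes came first, namely Nedd1 (r = 0.911), Sertad3 (r = 0.903), Mtm1 (r = 0.887), Arid4b (r = 0.880) and Fchsd2 (r = 0.875).

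The wider pathway was described with 5 lists, each without the 9 genes, and no gene of any of these lists passed the adjusted threshold in edgeR. In DESeq2 1 gene did, Etv1. Of 16 further bHLH genes of neural differentiation, 13 were tested, of which 7 were lower and 6 higher by sign (median log2 fold change -0.05). The close relatives of Neurog2 were all but absent, with 12 reads of Neurog1 and 8 of Neurog3 over all libraries and 0 reads of Atoh1. The highest of this list were the circadian and activity-regulated repressors Bhlhe40, with 180 CPM in the wild type and 161 CPM in the Fmr1 KO (log2 fold change -0.17, SE 0.08, edgeR adjusted p = 0.621), and Bhlhe41, with 89.6 and 86.6 CPM.

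Among the 13 partners and antagonists of bHLH factors, 5 were lower and 8 higher by sign (median log2 fold change 0.11), and 4 of the higher and 1 of the lower had an unadjusted p below 0.05, where 4.29% and 3.67% of all genes did. The 4 higher genes were the inhibitors Id1, Id2, Id3 and Hes5. Id2, which binds bHLH partners without binding DNA, had 42.6 ± 5.30 CPM in the wild type and 56.0 ± 11.5 CPM in the Fmr1 KO (SD, n = 6 each), with a log2 fold change of 0.40 (SE 0.12, edgeR adjusted p = 0.361). Id3 had a log2 fold change of 0.34 (SE 0.10, edgeR adjusted p = 0.332), Id1 one of 0.35 and Hes5 one of 0.49. The gene with the lower level was Hes1, a Notch effector that represses proneural genes, with a log2 fold change of -0.29 (SE 0.11, edgeR adjusted p = 0.504). The Id and Hes genes are also expressed in glia and vessels, and the astrocyte list (5 of 5 markers detected, 698 to 846 CPM in the wild type and 762 to 1188 CPM in the Fmr1 KO) and the endothelial list (4 of 4, 25.8 to 39.6 CPM and 32.1 to 48.7 CPM) were 0.18 and 0.34 higher in the Fmr1 KO on the log2 scale (adjusted p = 0.255 and 0.240, exact permutation tests). Their part in these values was not tested. Tcf4, the main partner by level, stood at 764 CPM in the wild type and 709 CPM in the Fmr1 KO, and Hey1 at 61.5 and 60.1 CPM.

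The targets and cofactors known for Neurog2 in cortical development were looked at in the same way. Of 11 genes, 7 were lower and 4 higher by sign (median log2 fold change -0.02), and none had an unadjusted p below 0.05. Rnd2, the small GTPase through which Neurog2 acts on migration, had 21.8 CPM in the wild type and 21.4 CPM in the Fmr1 KO, and the Notch ligand Dll1 had 7.07 and 6.995 CPM. The LIM cofactors Lmo4 (101 CPM in each genotype) and Ldb1 (91.0 CPM in each genotype) were the highest of this list.

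Of 26 transcription factors of forebrain patterning and projection neurons, 16 were lower and 10 higher by sign (median log2 fold change -0.06), where 48.6% of all genes tested were lower. Of these 26, 6 of the lower and none of the higher had an unadjusted p below 0.05, against 3.67% and 4.29% of all genes. Etv1, an ETS factor of projection neurons, had 48.8 to 55.7 CPM in the wild type and 37.8 to 46.5 CPM in the Fmr1 KO. Its groups did not overlap, with a log2 fold change of -0.31 (SE 0.07, edgeR adjusted p = 0.181, DESeq2 adjusted p = 0.0073). Bcl11b, a zinc finger factor needed for hippocampal neurons to mature, had 340 ± 23.1 CPM in the wild type and 291 ± 39.2 CPM in the Fmr1 KO (SD, n = 6 each), with a log2 fold change of -0.22 (SE 0.08, edgeR adjusted p = 0.472). Further genes of this kind were Zbtb20 (log2 fold change -0.44), Bcl11a (-0.18) and Zbtb18 (-0.16, with 687 and 614 CPM the highest of the list), with edgeR adjusted p from 0.549 to 0.621. The CA1 list given above shares members with this list, such as Pou3f1. How the lower genes named here moved with the CA1 list was not tested. Among 13 Sox and T-box relatives, 8 were lower and 5 higher by sign (median log2 fold change -0.06), none with an unadjusted p below 0.05, and Sox12 (50.1 and 45.7 CPM) and Sox9 (38.99 and 44.7 CPM) were the highest.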

How the data were processed

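Ribosome-bound RNA of 12 libraries (6 wild type, 6 Fmr1 KO) was measured. Per the labels and methods, the authors aligned single-end reads of 50 bases to mm10 with TopHat2 2.1.1 and Bowtie2 2.2.8, discarded alignments with more than 3 mismatches, counted reads per gene with HTSeq 0.6.1p1 in union mode using strand, and deposited raw counts without normalization. Which of 4 libraries shared a lane was not given in the sources used here.

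Genes with at least 15 reads in total were tested with edgeR 4.0.16 (TMM, quasi-likelihood, no covariate, R 4.3.3) and Benjamini-Hochberg adjustment over 17823 genes at 0.05. DESeq2 1.42.0, limma 3.58.1 voom, other scalings and filters, robust fitting, a replicate block and each library left out were alternatives. The SE is the log2 fold change divided by the root of F. Marker scores are means of log2 CPM (prior count 2), compared by two-sided exact permutation tests, and correlation p-values come from 100000 permutations. Intervals of reads (Poisson, 95%) cover counting error only. Exon lengths came from GENCODE M21 by Entrez identifier, where it matched a single gene (93.1% of tested genes had a length). Coding sequences came from GENCODE M21 by symbol and gene positions from RefSeq GRCm38.p6. Named are the 9 genes, per list the genes with the smallest p under 0.05 (at most 4) and the 2 highest, and the 5 genes most like Neurog2 on each measure. Hes1, Rnd2, Dll1, Neurog1, Neurog3, Neurod4, Atoh1 and single marker genes are outside that rule and were chosen after their values were seen. The members and lists were chosen with earlier results of these data known. Both tools were tested on simulated counts. The values of some list genes are not reported here.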

Additional observations from a re-analysis of the deposited data

Results flagged for a closer look

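A library stood apart from the other 5 of its genotype in 3 of the 42 groups examined (9 genes and 12 marker lists in 2 genotypes), where chance alone gives about 2.1. Neurog2 in Fmr1 KO replicate 4 had 0.792 CPM against 0.603 to 0.654 CPM in the others, a gap of 0.729 of the whole range. The 95% Poisson interval of its 38 reads spans 0.561 to 1.09 CPM. Neurod6 in wild-type replicate 1 had 321.7 CPM against 267.5 to 283.2 CPM (0.711 of the range). Without that library the log2 fold change of Neurod6 was -0.15. Tbr1 in wild-type replicate 4 had 20.9 CPM against 28.8 to 33.4 CPM (0.628 of the range). The same library had the highest Neurog2 and Eomes levels and the lowest Bhlhe22 level of the wild type.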

How the results depend on the processing

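The log2 fold changes of the 9 genes kept their direction and their side of the threshold in 196 refits, turned in 10 and passed the threshold in 1. Neurog2 passed the adjusted threshold in DESeq2 (-1.04, adjusted p = 0.0045), which made 1 of the 9 genes past the threshold there, and in no other alternative (adjusted p up to 0.515). The number of genes past the threshold was 84 in DESeq2, 1 with at least 10 reads in every library, 2 with the CA1 list and 1 with the choroid plexus list as a covariate (both chosen after the data were seen), and 2 to 6 without 1 library. The filter of at least 10 reads in every library takes out Fmr1 itself, which had 0 or 1 read in each Fmr1 KO library. The cause of the other shifts was not tested. With 1 library left out, the log2 fold change ran from -0.042 to 0.13 for Tbr1, from -0.26 to 0.11 for Eomes and from -0.037 to 0.051 for Emx1, and, without a turn of sign, from -0.36 to -0.11 for Neurod1, from -0.19 to -0.08 for Neurod2 and from -0.25 to -0.08 for Sox11. The marker lists turned sign in 10 recomputations and kept it in 158, namely Cajal-Retzius (-0.13 to 0.030 without 1 library and 0.051 by summed CPM, from -0.040), Microglia (-0.067 to 0.029 and 0.046, from -0.015) and GABAergic (-0.11 to 0.062, from -0.026). Same-numbered libraries of the genotypes did not deviate together (correlations -0.08 to 0.09), so the numbers give no pairing. With the replicate number as a block, Neurog2 had -1.03 and Neurod6 -0.20, and 4 genes and 0 of the 9 passed. Neurog2 and Eomes rest on 28 to 73 and 22 to 66 reads in a library, which limits what could be detected for them.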
